A study of Mus musculus with 8 samples.

Results

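The genes described here are Srf, which encodes serum response factor, its cofactor genes Mrtfa and Mrtfb, and 7 genes of the actin cytoskeleton that are known as targets of this pathway, namely Acta2, Actn1, Actn4, Cald1, Vcl, Flna and Tpm1. The members were chosen by name and found by Entrez Gene ID in the count table, where all 10 of 10 were present among 24594 genes. RNA levels were measured by bulk RNA-seq in 2 fractions of luminal cells, sorted from the mammary gland of untreated, wild type C57BL/6J virgin mice. Per the paper's methods, the gland was digested for hours with hyaluronidase and collagenase, then treated with trypsin and dispase, before sorting. The effect of this digestion on RNA levels was not tested. The c-Kit high fraction holds luminal progenitors (LP, 4 libraries) and the c-Kit low fraction holds mature luminal cells (mature, 4 libraries). Neither fraction carried a transgene or received an agent. The labels list EpCAM, CD49f, c-Kit and CD14 as the markers used for sorting. Each LP library shares a sample number in its name with 1 mature library, but nothing states what the number marks. The paper's methods call the RNA-seq replicates biological, without saying that each came from a separate mouse. The p-values therefore measure only the spread between these libraries.

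Serum response factor binds DNA at the CArG box and works with partner proteins of 2 kinds. The myocardin-related transcription factors (the products of Mrtfa and Mrtfb) are held by actin monomers and are freed for the nucleus when RhoA signalling drives actin into filaments, and the ternary complex factors link serum response factor to MAP kinase signalling. The pathway is best known for controlling contractile and cytoskeletal genes, and in the mammary gland the contractile programme belongs to the basal (myoepithelial) cells that surround the luminal layer. RNA levels do not show where the MRTF proteins are or how active they are.

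LP libraries held 5510863 to 7089597 counts and mature libraries 4410049 to 7791593. Luminal identity was clear in all libraries, since the luminal keratins Krt8 and Krt18 were at 2301 CPM or above (CPM, counts per 1000000 counts of the TMM-scaled library size). Basal cell markers summed to 18.04 to 45.5 CPM over 8 genes in LP and 9.70 to 61.9 in mature libraries. Among them, Krt5 and Snai2 were at 0 in most libraries, whereas Krt14 and Krt17 had counts in all libraries. Krt17 ranged from 14.2 to 33.2 CPM in LP and from 6.83 to 28.3 CPM in mature libraries. Oxtr ranged from 1.11 to 11.9 CPM in LP and was at 0 in all mature libraries but replicate 3 (3.18 CPM). Fibroblast markers summed to 7.35 to 41.7 CPM over 6 genes in LP and 27.0 to 179 in mature libraries. The sums were 138 and 179 CPM in mature replicates 1 and 2, mainly from Dcn (132 and 154 CPM), and 28.3 and 27.0 CPM in mature replicates 3 and 4. Pericyte and endothelial markers (15.7 to 35.8 and 11.9 to 27.7 CPM over 6 genes) and immune cell markers (4.16 to 7.803 and 3.61 to 6.33 CPM over 5 genes) were low in both fractions, with Cd3e at 0 throughout. Notch3 had counts in all libraries (9.34 to 23.9 CPM), whereas Rgs5 was at 12.5 CPM in LP replicate 4 and at most 2.81 CPM elsewhere. Kcnj8 had counts only in LP replicate 4 (1.39 CPM). Mature replicate 3 stood apart from the other mature libraries in 2 markers. It had 179 CPM of Kit against 41.2 to 73.5 and 18.6 CPM of the basal keratin gene Krt14 against 1.58 to 7.84. Over all genes, replicates 1 and 2 had the most similar counts in both fractions. Their chi-square per degree of freedom was 11.95 in LP (other pairs 20.51 to 29.32) and 14.65 in mature libraries (other pairs 50.14 to 89). Results were also computed without mature replicate 3, as they were without each other library in turn.

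The CArG box is 10 letters long, with a pair of C, 6 letters that are A or T, and a pair of G, and reads as the same pattern on both strands. It was searched in the 250 bases upstream of each annotated start in the RefSeq promoter table (GRCm38.p6, the assembly of mm10), where 482 of 32851 windows (1.47%) and 1.62% of genes held it. Among the members, 2 of 10 held a full match, Srf and Vcl, the gene of vinculin. A match with 1 mismatch was found for 19.9% of all genes (17.5% of windows) and for 6 of 10 members (Srf, Mrtfa, Acta2, Cald1, Flna and Tpm1). The following stretches show the boxes in Srf (chr17:46556193-46556272, minus strand), Vcl (chr14:20929148-20929207, plus strand) and Acta2 (chr19:34255414-34255523, minus strand), together with 2 pathway genes that differed between the fractions and held a full match, Actg1 (chr11:120348546-120348615, minus strand) and Rnd3 (chr2:51149172-51149241, minus strand). Capitals mark a full match, except in Acta2, where they mark a match with 1 mismatch. Acta2 held a further match with 1 mismatch that begins 34 bases before the start, past the end of its stretch.
Srf: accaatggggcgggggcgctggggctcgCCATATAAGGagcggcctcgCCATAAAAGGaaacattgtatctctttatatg
Vcl: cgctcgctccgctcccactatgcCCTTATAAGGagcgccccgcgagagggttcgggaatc
Acta2: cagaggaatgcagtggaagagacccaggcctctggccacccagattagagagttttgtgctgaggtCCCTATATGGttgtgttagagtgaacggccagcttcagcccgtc
Actg1: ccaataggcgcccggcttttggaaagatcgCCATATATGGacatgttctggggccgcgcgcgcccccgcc
Rnd3: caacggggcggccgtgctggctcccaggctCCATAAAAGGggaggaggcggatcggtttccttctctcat
The boxes of Srf begin 82 and 62 bases before the start, that of Vcl 227, that of Actg1 90 and that of Rnd3 100. Mrtfb, Actn1 and Actn4 held neither a full match nor one with 1 mismatch in this window, which says only that these letters are not there.

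The comparison of LP with mature cells asks whether genes of the SRF pathway differ between progenitors and differentiated cells of the luminal lineage. Of the 10 members, Mrtfb and Flna were higher in LP, no member was higher in mature cells, and 8 did not pass the test (edgeR quasi-likelihood test, Benjamini-Hochberg adjusted p under 0.05 over 12816 genes). The 2 called members make up 20% of the list, beside 24.7% of all tested genes called in either direction, 10.9% called as higher in LP and 13.8% called as higher in mature cells. The members' share was thus near that of all genes. Mrtfb and Flna were also called without mature replicate 3 and under each of the other settings tried. The median log2 fold change of the 10 members (LP over mature, so positive means higher in LP) was -0.29, beside a median of 0.00 for all genes tested. Fewer cells with a transcript and less of it per cell cannot be told apart in these bulk libraries.

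**Figure D1:**
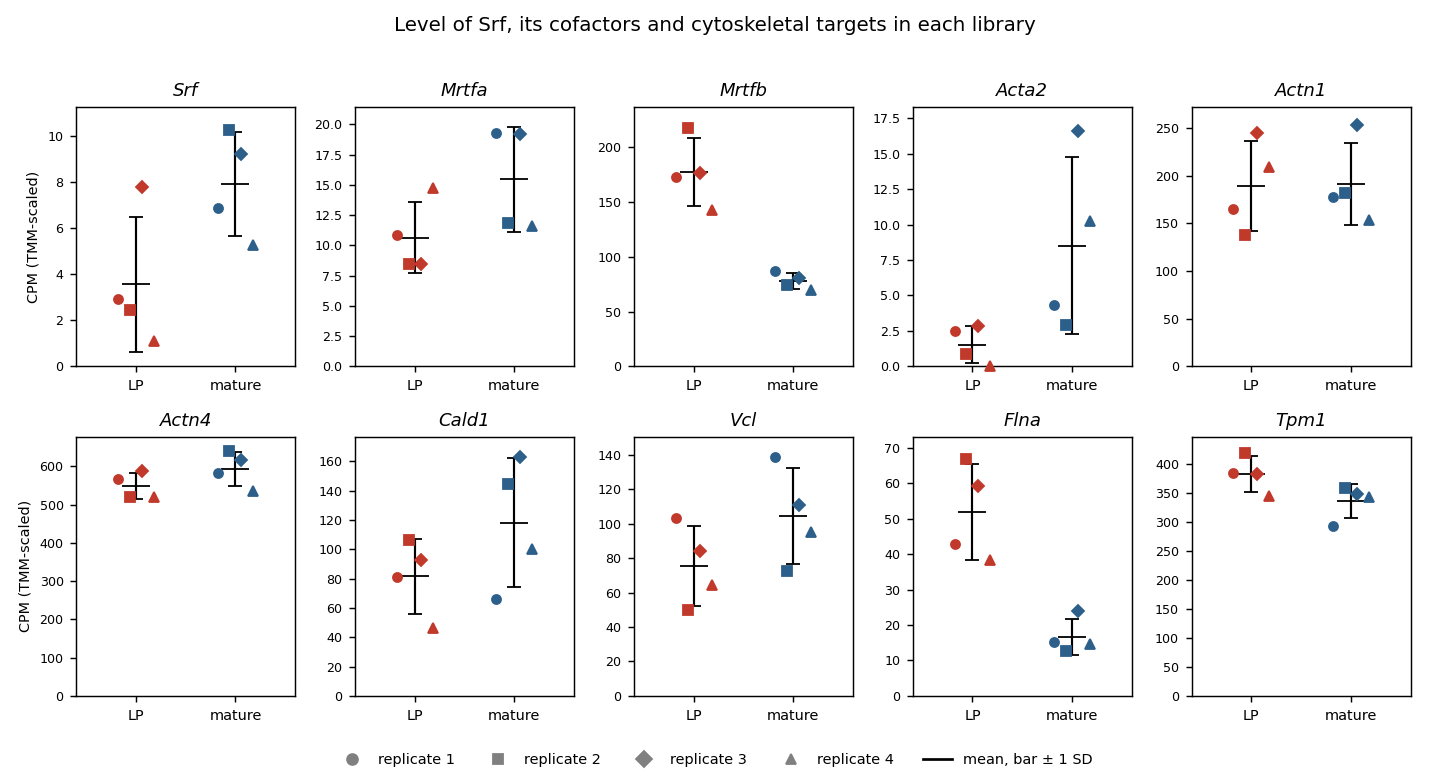
Level of each member in CPM (vertical axis, linear and starting at 0, with its own scale in each panel) in the 4 LP and the 4 mature libraries, where points are libraries, the horizontal line is the mean and the bar is ± 1 SD. The LP and mature points are apart for Mrtfb, Flna and Acta2 and overlap for the other 7 genes.

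Mrtfb, which encodes a coactivator that carries the actin signal to serum response factor, was the member with the lowest adjusted p. It lies on chr16:13256056-13417529 (plus strand). LP replicates 1 to 4 had 173, 218, 177 and 143 CPM and mature replicates 1 to 4 had 87.2, 74.3, 80.8 and 69.6 CPM. Every LP library was above every mature library. The mean was 178 ± 30.9 CPM in LP (SD, n = 4) and 78.0 ± 7.67 in mature cells (SD, n = 4), which is 2.28-fold higher in LP (log2 fold change 1.19, SE 0.166, edgeR adjusted p = 0.000913). The study placed Mrtfb in its own LP gene set, which was chosen on these same libraries, so that membership is not independent evidence of its direction.

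Mrtfa, the paralog of Mrtfb with the same biochemical role, lies on chr15:81012281-81190736 (minus strand) and was not called. LP libraries had 10.9, 8.48, 8.47 and 14.7 CPM and mature libraries 19.3, 11.8, 19.2 and 11.6 CPM, and the fractions overlapped. The log2 fold change was -0.54 (SE 0.336, 95% interval -1.28 to 0.20, edgeR adjusted p = 0.270). The relation of both cofactor genes was also taken within each library, per kb of annotated exon, where scaling between libraries does not enter. The level of Mrtfb was 10.8, 17.5, 14.2 and 6.62 times that of Mrtfa in the LP libraries and 3.08, 4.28, 2.86 and 4.08 times in the mature libraries. Mrtfb was therefore the more abundant cofactor transcript in all 8 libraries, and by a wider margin in every LP library than in any mature library. This ratio was chosen after its values were seen and was not tested.

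Srf itself, on chr17:46546838-46558267 (minus strand), was a low transcript with 8 to 64 counts per library. LP libraries had 2.90, 2.44, 7.803 and 1.11 CPM and mature libraries had 6.89, 10.2, 9.24 and 5.27 CPM. The fractions overlapped through LP replicate 3, whose value lay between those of the mature libraries. The log2 fold change was -1.15 (SE 0.596, 95% interval -2.47 to 0.17) and did not pass the test (edgeR adjusted p = 0.188). Without LP replicate 3 it was -1.86 and passed (edgeR adjusted p = 0.0446), and without both libraries numbered 3 it was -1.78 and did not (edgeR adjusted p = 0.0670). The sum of basal cell markers was also highest among LP libraries in replicate 3 (45.5 CPM, of which Krt17 made up 33.2). Krt5 (1.16 CPM, beside 0) and Cdh3 (1.16 CPM, beside 0.139 to 0.575) were highest there too. Krt14 (1.16 CPM, beside 1.94 to 3.02) and Trp63 (0.166 CPM, beside 0.277 to 0.726) were lowest there. The part of basal cells in the result was not tested. The estimate for Srf thus had the opposite sign to that for Mrtfb, with an interval that includes 0.

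The other partners of serum response factor gave no further call. Of 8 genes in a list of SRF and its cofactors, 7 could be tested and 1 (Mrtfb) was called, which is 14.3% beside 24.7% of all genes. The median log2 fold change of 0.14 changed sign with the settings (-0.50 without LP replicate 4 to 0.24 without LP replicate 1). Myocd, the gene of the smooth muscle coactivator myocardin, had 11 counts in all LP libraries and 10 in all mature libraries and was below the filter on low counts. Among the ternary complex factor genes, Elk3 ranged from 3.19 to 8.05 CPM in LP and from 10.2 to 19.8 CPM in mature libraries without overlap, but missed the threshold (log2 fold change -1.002, SE 0.415, edgeR adjusted p = 0.104). This gene was named after its values were seen.

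Flna, the gene of filamin A, a protein that crosslinks actin filaments and links them to integrins, was the other member higher in LP. It lies on chrX:74223461-74249854 (minus strand). LP libraries had 43.0, 67.0, 59.3 and 38.3 CPM and mature libraries 15.3, 12.6, 24.1 and 14.8 CPM, with no overlap. The mean was 51.9 ± 13.5 CPM in LP and 16.7 ± 5.07 in mature cells (SD, n = 4 each), a 3.09-fold difference (log2 fold change 1.63, SE 0.274, edgeR adjusted p = 0.00231).

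Acta2, the gene of smooth muscle actin and the defining contractile gene of myoepithelial cells, was a low transcript, near its limit of detection in LP. It lies on chr19:34240336-34255585 (minus strand) and had 17, 6, 17 and 0 counts in LP and 31, 11, 115 and 68 counts in mature libraries. In CPM these were 2.47, 0.863, 2.82 and 0 in LP, where 0 counts allow a level of up to 0.416 CPM (3 counts; counting error only), and 4.36, 2.89, 16.6 and 10.2 in mature cells. All mature libraries were above all LP libraries, although the lowest mature value, 2.89, and the highest LP value, 2.82, were almost equal. The log2 fold change was -2.47 (SE 0.935, 95% interval -4.54 to -0.41) and did not pass after adjustment over all genes (edgeR adjusted p = 0.0784), whereas DESeq2 gave an adjusted p of 0.0283. Acta2 met the filter on low counts through the mature libraries, with 4 of them and 2 LP libraries above its limit. Mature replicates 3 and 4, with the most Acta2, also had the highest sums of basal cell markers among mature libraries (61.9 and 27.3 CPM). Replicates 1 and 2, at 9.70 and 13.7 CPM, were in the reverse order to Acta2. Krt14 (2.11, 1.58, 18.6 and 7.84 CPM) and Krt17 (7.03, 6.83, 28.3 and 12.7) followed the order of Acta2. Trp63 (0.281, 0.263, 3.03 and 5.42 CPM) and Cdh3 (0, 3.15, 3.32 and 0.753) did not. Neither did Col17a1 (0.281, 1.58, 0.722 and 0.603 CPM) or Krt5, and Oxtr and Snai2 had counts only in replicate 3. In LP replicate 3, where the basal marker sum was 45.5 CPM mainly from Krt17, Acta2 was at 2.82 CPM. Krt14, Krt5 and Cdh3 were at 1.16 CPM each there, which was the lowest LP value for Krt14 and the highest for Krt5 and Cdh3. The part of basal cells in this difference was not tested. The non-overlapping libraries of Mrtfb and Flna (2 of 10, higher in LP) and of Acta2 (1 of 10, higher in mature cells) stand beside 29.5% of all genes in either direction, 14% with every LP library above and 15.5% with every mature library above.

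The alpha-actinins, which crosslink actin filaments and anchor them at adhesion sites, differed little between the fractions. Actn4 (chr7:28893248-28962351, minus strand) had 566, 520, 588 and 519 CPM in LP and 583, 639, 615 and 535 CPM in mature libraries. The estimated log2 fold change was -0.11 (SE 0.145, 95% interval -0.43 to 0.21, edgeR adjusted p = 0.611). The fractions overlapped. Actn1 (chr12:80167542-80260420, minus strand) had 165, 137, 245 and 209 CPM in LP and 177, 182, 253 and 154 CPM in mature libraries. The estimated log2 fold change was -0.02 (SE 0.219, 95% interval -0.50 to 0.46, edgeR adjusted p = 0.964), and its sign depended on the settings. Within a library the level of Actn4 per kb was 2.17 to 3.42 times that of Actn1 in LP and 2.195 to 3.18 times in mature cells.

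**Figure D2:**
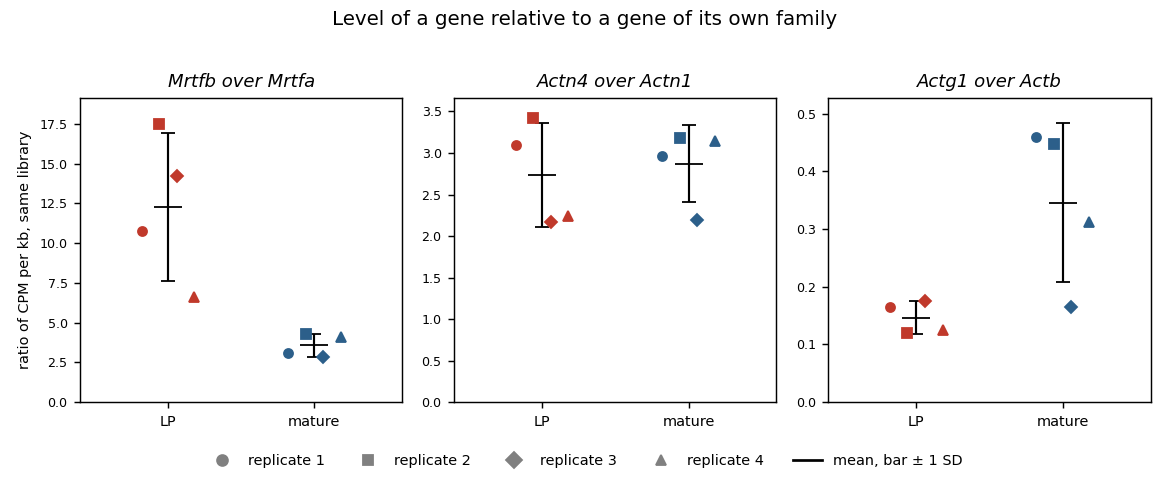
Ratio of the levels of 2 genes of one family within the same library, from CPM per kb of annotated exon (vertical axis, linear and starting at 0), for the 4 LP and the 4 mature libraries, where points are libraries, the horizontal line is the mean and the bar is ± 1 SD. The LP and mature points do not overlap for Mrtfb over Mrtfa, and overlap for Actn4 over Actn1 and, through mature replicate 3, for Actg1 over Actb.

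Vinculin and caldesmon, which couple actin to adhesion complexes and regulate actomyosin, both had a lower mean in LP and did not pass the test without a block. Vcl (chr14:20929383-21033676, plus strand) had 103, 49.9, 84.3 and 64.6 CPM in LP and 139, 72.2, 111 and 95.2 CPM in mature libraries (log2 fold change -0.47, SE 0.258, 95% interval -1.04 to 0.10, edgeR adjusted p = 0.213). The fractions overlapped, although the LP library was the lower one for each of the 4 replicate numbers, and blocking on these numbers in the fit gave a call (log2 fold change -0.48, edgeR adjusted p = 0.0453). Cald1 (chr6:34598495-34775469, plus strand) had 81.2, 106, 92.5 and 46.6 CPM in LP and 65.8, 144, 163 and 100 CPM in mature libraries (log2 fold change -0.53, SE 0.310, 95% interval -1.22 to 0.15, edgeR adjusted p = 0.238). The lowest Cald1 value of the mature fraction lay inside the LP range. Blocking on the replicate numbers gave no call for Cald1 (log2 fold change -0.52, edgeR adjusted p = 0.157).

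Tpm1, the gene of a tropomyosin that lies along actin filaments, had the higher mean in LP. It lies on chr9:67022590-67049672 (minus strand). LP libraries had 385, 420, 384 and 345 CPM and mature libraries 294, 360, 349 and 344 CPM. The lowest LP library overlapped with the mature range, and the log2 fold change of 0.19 did not pass (SE 0.145, 95% interval -0.13 to 0.51, edgeR adjusted p = 0.378).

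**Figure D3:**
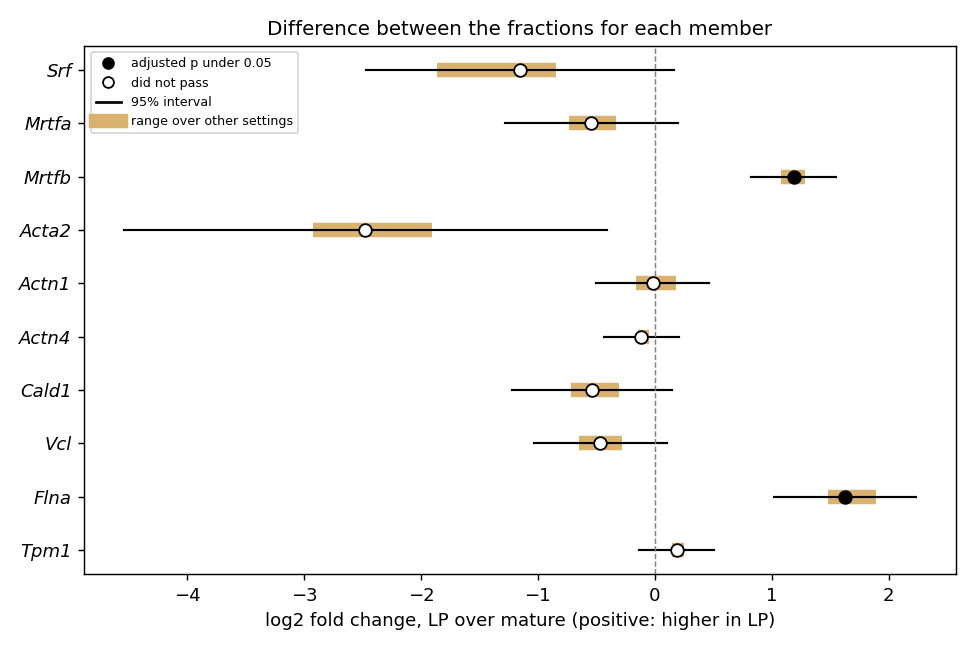
log2 fold change of each member (horizontal axis, LP over mature, positive when higher in LP) with its 95% interval from the quasi-likelihood fit (black line) and its range over up to 15 other settings (tan bar). Filled points passed an adjusted p of 0.05: Mrtfb at 1.19 and Flna at 1.63 have intervals above 0, and the other 8 members did not pass, Acta2 at -2.47 having the widest interval.

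Members were ordered by level per kb of annotated exon, a length that counts every alternative exon and so lowers the value of genes with many isoforms. In LP, Actn4 was highest at 89.5 ± 5.59 CPM per kb, followed by Tpm1 (59.2 ± 4.74), Actn1 (34.2 ± 8.60) and Mrtfb (19.8 ± 3.43; SD, n = 4 each), and none of these overlapped with the next in any library. Vcl (9.22), Cald1 (6.78) and Flna (5.52) overlapped as neighbours, as did Mrtfa (1.74), Srf (1.23) and Acta2 (0.701), the last 3 well below the rest. In mature cells the order began in the same way with Actn4 (96.8 ± 7.36), Tpm1 (51.9 ± 4.51) and Actn1 (34.6 ± 7.76; SD, n = 4 each), where Tpm1 and Actn1 overlapped. Mrtfb stood at 8.68 CPM per kb, within the range of its neighbour Cald1 (9.82), and Flna came last at 1.78, in a run of overlapping neighbours with Acta2 (3.88), Srf (2.73) and Mrtfa (2.53). Mrtfb thus went from rank 4 in LP to rank 6 in mature cells, Flna from rank 7 to rank 10 and Acta2 from rank 10 to rank 7, while the top 3 genes were the same.

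The identity of the reads behind each member was checked by counting the 51-base words, the length of the sequenced reads, that its GENCODE transcripts share with other genes. No word was shared for Srf, Mrtfa, Cald1, Flna and Tpm1, while Mrtfb shared 2.54% and Actn1 6.74%, mainly with the gene model Gm47766. Acta2 shared 0.28%, with Actg1 and its pseudogenes among others, so that most of its words set it apart from the other actins, Actb at 1742 to 4168 CPM among them. A small share of words does not show where its few counts came from, since Actg1 had 2040 to 7527 counts per library. The part of shared reads in the counts of Acta2 was not tested. The values of Vcl are less certain, since 25.1% of its words also occur in the overlapping gene Ap3m1, and Actn4 shared 4.46%, mainly with the overlapping gene Capn12. How the authors treated reads matching several genes is not given in the sources used here.

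Other contractile genes of smooth muscle were low in both fractions and none was called. Of 10 genes on that list, 5 could be tested, and 0 passed edgeR, 1 (Acta2) having an unadjusted p under 0.05, while DESeq2 called 1 (Acta2). The median log2 fold change of 0.25 over these 5 changed sign with the settings, from -1.32 with DESeq2, which included all 10 genes, to 0.55 without both libraries numbered 3, and was -0.80 without LP replicate 2. The pair with the highest mean level was Tagln, which encodes the actin-binding protein transgelin, and Tpm2, which encodes beta-tropomyosin. Tagln ranged from 11.3 to 37.4 CPM in LP and from 1.69 to 37.8 CPM in mature libraries (log2 fold change 0.30, SE 0.716, edgeR adjusted p = 0.795). Tpm2 ranged from 12.8 to 34.2 CPM in LP and from 6.06 to 24.2 CPM in mature libraries (log2 fold change 0.55, SE 0.459, edgeR adjusted p = 0.417). Both libraries numbered 3 had the most Tagln of their fraction and the highest sum of basal cell markers. Krt5, Krt17 and Cdh3 were also at their highest of the fraction in these libraries. Krt14 was the highest of its fraction in mature replicate 3 but the lowest in LP replicate 3, where Trp63 was lowest too. The part of basal cells was not tested.

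Of 28 actin filament and adhesion genes, all tested and 7 of them members, 2 were higher in LP (Flna and Tln1), 6 were higher in mature cells and 20 were not called, with a median log2 fold change of -0.45. The 28.6% called were near the 24.7% of all genes. Tln1, the gene of talin, which activates integrins, ranged from 42.8 to 54.3 CPM in LP and from 16.4 to 27.0 CPM in mature libraries (log2 fold change 1.14, SE 0.209, edgeR adjusted p = 0.00342). Among the genes higher in mature cells, Itga5, the fibronectin receptor subunit, went from at most 1.66 CPM in LP to between 6.64 and 10.3 CPM (log2 fold change -2.95, SE 0.781, edgeR adjusted p = 0.0192), having met the filter on low counts only through the mature libraries. Cnn3, the gene of acidic calponin, ranged from 222 to 336 CPM in LP and from 480 to 1048 CPM in mature libraries (log2 fold change -1.53, SE 0.256, edgeR adjusted p = 0.00225). A nonmuscle actin gene and a nonmuscle myosin gene were also called. Actg1, cytoplasmic gamma-actin, ranged from 293 to 414 CPM in LP and from 539 to 1162 CPM in mature libraries (log2 fold change -1.38, SE 0.257, edgeR adjusted p = 0.00367), and Myh9, the nonmuscle myosin IIA heavy chain, from 104 to 138 CPM and from 194 to 302 CPM (log2 fold change -0.97, SE 0.174, edgeR adjusted p = 0.00298). The other cytoplasmic actin gene, Actb (log2 fold change -0.24, edgeR adjusted p = 0.536), and the related myosin gene Myh10 (log2 fold change -0.90, edgeR adjusted p = 0.220) were not called, and both were named after their values were seen. Actg1 and Cnn3 are in the gene set of mature cells that the study chose on these libraries.

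**Figure D4:**
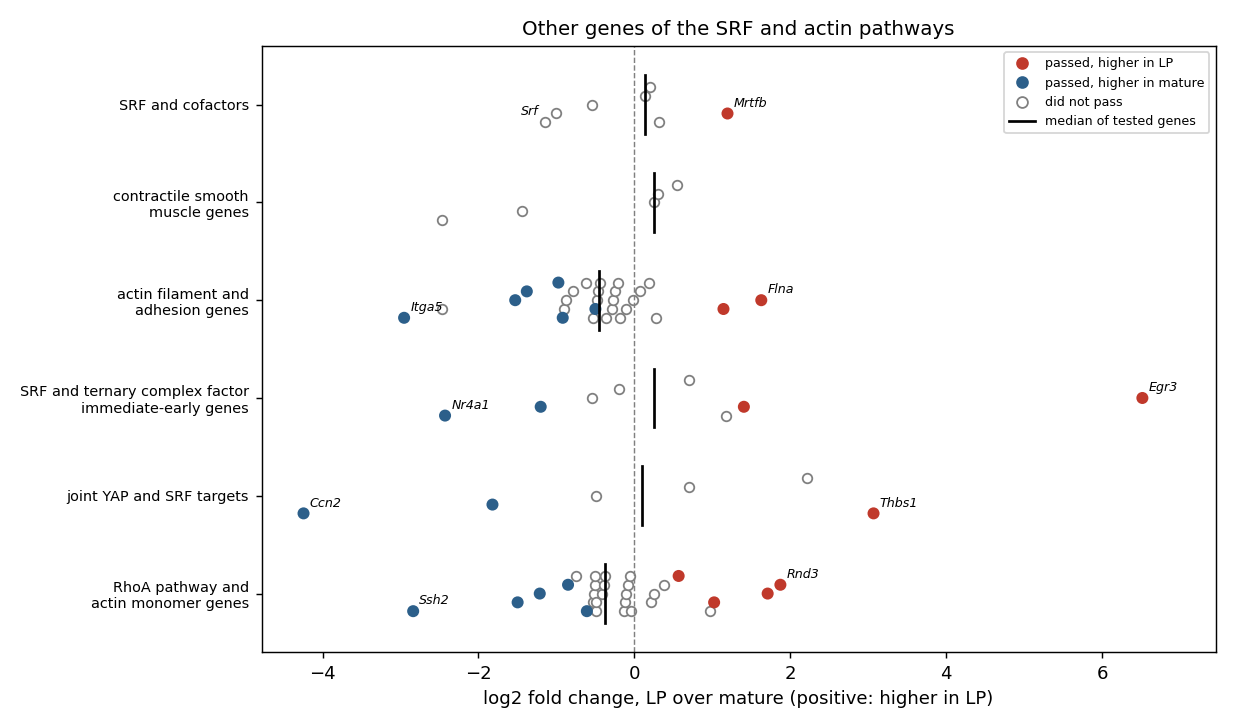
log2 fold change (horizontal axis, LP over mature, positive when higher in LP) of the tested genes in 6 pathway lists (rows), with red and blue points for genes called as higher in LP and in mature cells, open points for genes that did not pass and a black bar at each list's median. The medians lie between -0.45 and 0.25, and called genes stand on both sides of 0 in the 4 lower lists. The point of Egr3 is set by a single count in the mature libraries.

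RhoA signalling sets the pool of free actin monomers. Of 30 genes of this step, 29 were tested, 4 were higher in LP, 5 were higher in mature cells and 20 were not called, with a median log2 fold change of -0.37. The share called was 31%, beside 24.7% of all genes. Rhoa itself, at 306 to 351 CPM in LP and 326 to 367 CPM in mature libraries, was not called (log2 fold change -0.13, edgeR adjusted p = 0.535, named after its values were seen). Rnd3, the gene of a small GTPase that counters RhoA, was the LP gene with the largest change, from 95.3 to 180 CPM in LP and from 25.9 to 58.3 CPM in mature libraries (log2 fold change 1.87, SE 0.301, edgeR adjusted p = 0.00181). Pfn2 and Pfn1, the genes of actin-binding profilins, were higher in LP by log2 fold changes of 1.71 (SE 0.391) and 0.57 (SE 0.154), as was Arhgef3, the gene of a RhoA exchange factor, by 1.02 (SE 0.177). Their edgeR adjusted p were 0.00991, 0.0216 and 0.00261.

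On the mature side, Ssh2, the gene of a phosphatase that activates cofilin, ranged from 193 to 350 CPM in LP and from 1164 to 3530 CPM in mature libraries (log2 fold change -2.84, SE 0.377, edgeR adjusted p = 0.000742). Gna13, the G protein subunit that couples receptors to RhoA exchange factors, was lower in LP by a log2 fold change of -1.50 (SE 0.169, edgeR adjusted p = 0.000425). Tmsb4x, which encodes the monomer-binding peptide thymosin beta-4, ranged from 1066 to 1734 CPM in LP and from 2486 to 3785 CPM in mature libraries (log2 fold change -1.21, SE 0.217, edgeR adjusted p = 0.00305). Limk2, the gene of a kinase that inactivates cofilin, was lower in LP by a log2 fold change of -0.85 (SE 0.197, edgeR adjusted p = 0.0105). Genes with opposite roles thus appeared on the same side: Ssh2 and Limk2 act on cofilin in opposite ways and both were higher in mature cells. Rnd3 and Arhgef3 belong to the LP gene set that the study chose on these libraries, and Ssh2, Gna13 and Tmsb4x to its set for mature cells.

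Of 9 immediate-early genes that the ternary complex factors control through SRF, 8 were tested, 2 were higher in LP, 2 were higher in mature cells and 4 were not called (50% called, beside 24.7% of all genes). The median log2 fold change of 0.25 changed sign with the settings (-0.46 without LP replicate 3 to 0.48 without LP replicate 2). Egr3, a zinc finger transcription factor gene, had 148 counts over the LP libraries and 1 count over the mature libraries, a ratio of 134 after scaling (95% counting interval 23.7 to 5320). LP replicate 1 alone held 84 of these counts, and without it the mean in LP went from 5.47 to 3.23 CPM and the ratio to 77.6 (13.4 to 3110). The gene met the filter on low counts only through the LP libraries (edgeR adjusted p = 0.00197). Ier2 ranged from 331 to 459 CPM in LP and from 111 to 192 CPM in mature libraries (log2 fold change 1.40, SE 0.200, edgeR adjusted p = 0.00102). In the other direction, Nr4a1, an orphan nuclear receptor gene, ranged from 10.96 to 17.0 CPM in LP and from 25.2 to 155 CPM in mature libraries (log2 fold change -2.43, SE 0.469, edgeR adjusted p = 0.00440), and Fos ranged from 122 to 158 CPM and from 201 to 479 CPM (log2 fold change -1.20, SE 0.240, edgeR adjusted p = 0.00525).

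The 6 genes known as targets of both SRF and the Hippo effector YAP gave 1 call for LP, 2 for mature cells and 3 without a call (50% called, beside 24.7% of all genes). The median log2 fold change of 0.10 changed sign with the settings (-0.83 without LP replicate 3 to 0.37 without LP replicate 2). Thbs1, the matrix protein thrombospondin-1, ranged from 626 to 990 CPM in LP and from 39.0 to 218 CPM in mature libraries (log2 fold change 3.07, SE 0.506, edgeR adjusted p = 0.00211). Ccn2 and Ccn1, which encode secreted matricellular proteins, were on the other side. Ccn2 ranged from 2.44 to 8.96 CPM in LP and from 31.1 to 194 CPM in mature libraries (log2 fold change -4.24, SE 0.651, edgeR adjusted p = 0.00140). Ccn1 ranged from 71.4 to 259 CPM in LP and from 324 to 1092 CPM in mature libraries (log2 fold change -1.82, SE 0.461, edgeR adjusted p = 0.0159). No library of one fraction reached the range of the other for these 3 genes. Thbs1 and Ier2 are in the LP set of the study and Ccn1 and Fos in its set for mature cells, chosen on these libraries.

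Genes with a profile over the 8 libraries most like that of Mrtfb were found by the root mean square difference of centred log2 CPM among all tested genes. They were Itpr2 (0.119 log2 units), Hsd17b12 (0.147) and Nsmce1 (0.156), with log2 fold changes of 1.11, 1.32 and 1.17. For Srf they were Slc24a3 (0.304), Ankrd50 (0.366) and Lrfn3 (0.366), whose log2 fold changes of -1.18, -0.85 and -1.06 did not pass the test (edgeR adjusted p = 0.0715, 0.380 and 0.236). The nearest profiles to Srf were therefore less close than those to Mrtfb. Srf had 8 to 64 counts per library and Mrtfb 283 to 1517, and the part of counting error in these distances was not tested. Genes chosen for a like profile have a like log2 fold change by that choice.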

How the data were processed

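RNA of sorted LP and mature luminal cells of the mouse mammary gland was amplified with a low-input cDNA kit and sequenced. Per the paper's methods, single-end reads of 51 bases were trimmed with cutadapt and aligned to mm10 with Bowtie2. The submitters' processing notes give cutadapt 4.2 and Bowtie2 2.3.5.1, whereas the paper's methods name another Bowtie2 version and no cutadapt version. The authors deposited raw counts per Entrez Gene ID without normalization. The counter and its annotation are not given in the sources used here. Of 24594 IDs, 24570 matched RefSeq (GRCm38.p6), and exon lengths came from GENCODE M21. The methods state 3 biological replicates per condition, whereas the table holds 4 per fraction, and all were used.

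Counts were analysed with edgeR 4.0.16 (TMM, filterByExpr by fraction, quasi-likelihood F-test, 12816 genes, Benjamini-Hochberg over all of them) in R 4.3.3, with limma 3.58.1 and DESeq2 1.42.0 as an alternative. SE is the absolute log2 fold change divided by the square root of F, and CPM carries no added count. Profiles used log2 CPM with a prior count of 2. On simulated data with these library sizes the test recovered 66% of 200 changes of log2 size 2, and 2.22% of its calls were false. Only these 200 of 12816 genes were changed there, whereas 24.7% were called in the data. The recovery therefore does not give the power of the fit to the data. Named genes were all members, up to 4 genes in each direction of each list with the largest change among those called (where none was called, the 2 with the highest mean level) and the 3 nearest profiles to Srf and to Mrtfb. Other genes were named after their values were seen. Members and lists were chosen with earlier results of these data known. Alternatives were other scaling factors, DESeq2, other filters, a replicate block, each library left out and, added after seeing the data, both libraries numbered 3 left out.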

Additional observations from a re-analysis of the deposited data

Results flagged for a closer look

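In 5 of 75 groups of 4 libraries examined for the named genes, 1 library lay far from the others of its fraction (gap to the nearest over the whole range, above Dixon's 95% limit), where chance alone gives about 1 in 20 groups, or 3.75 here. Itga5 was 10.27 CPM in mature replicate 1 beside 7.09, 6.78 and 6.64 in the other mature libraries. Thbs1 was 218.3 CPM in mature replicate 3 beside 69.1, 49.3 and 39.0. Ssh2 was 3530 CPM in mature replicate 3 beside 1468, 1284 and 1164. Ccn2 was 8.96 CPM in LP replicate 3 beside 3.47, 2.90 and 2.44. Slc24a3, the nearest profile to Srf, was 10.96 CPM in LP replicate 3 beside 4.65, 4.17 and 3.47. None of the 10 members was among these 5.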

How the results depend on the processing

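The calls of Mrtfb (log2 fold change 1.08 to 1.28, adjusted p up to 0.00453) and Flna (1.49 to 1.89, adjusted p up to 0.0102) held in all 15 other settings, and no other member was called in more than 1 of them. Under DESeq2, 1 member was higher in mature cells (Acta2), which was also the 1 contractile gene called there, in total and as higher in mature cells. With the replicate block, 1 member was higher in mature cells (Vcl, log2 fold change -0.48, adjusted p = 0.0453). The block called 3027 genes, 2757 of them shared with the 3161 of the fit without it. Libraries of the same number correlated after the fraction means were subtracted (0.113, 0.0618, 0.148 and 0.0844), each LP library best with its own number. The library names share these numbers across the fractions too, but do not say what a number marks. The filter of at least 10 counts in every library left 1 immediate-early gene higher in LP (Egr3 was no longer tested). The sign of Actn1 turned positive with upper-quartile factors (0.012), DESeq2 (0.015) and no filter (0.043), and it ranged from -0.16 (without LP replicate 3) to 0.18 (without mature replicate 3) over the fits without 1 library. Over the fits without 1 library, members higher in mature cells ranged from 0 to 1, SRF and cofactor calls from 1 to 2 and those higher in mature cells from 0 to 1, contractile calls from 0 to 1 in total and as higher in mature cells, and joint YAP and SRF targets from 1 to 2 in each direction; the calls for SRF and its cofactors, contractile genes and members rose without LP replicate 3. Calls over all genes ranged from 2338 to 3414 in those fits and from 2917 to 3954 under the other settings. Srf had 8 to 64 counts and Acta2 0 to 115 counts per library, which sets the counting error behind their values.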
